A study of Mus musculus with 37 samples.

Results

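The proteasome subunit genes are the protein-coding genes whose mouse GENCODE symbol begins with Psma, Psmb, Psmc, Psmd, Psme, Psmf or Psmg followed by a digit. The rule found 50 genes among the 21921 protein-coding genes and 54752 gene features of the RSEM table without spike-ins. They comprised 8 genes of the alpha ring, 11 of the beta ring, 9 of the base, 8 of the lid, 6 regulators and 7 assembly chaperones. The last match, Psmc3ip, is a cofactor of meiotic recombination and no subunit, and it was kept because the symbol rule takes it. A further 4 matching names were not annotated as protein-coding and were left out.

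The proteasome degrades proteins that carry a ubiquitin chain. Its core particle is a barrel of alpha rings around beta rings whose catalytic subunits cut the protein, and the regulatory particle on its end has a base of ATPases that unfold the protein and a lid that removes the ubiquitin. In oocytes the proteasome is known for destroying cyclin B and securin as meiosis proceeds, in a cell that no longer transcribes and works from stored RNA.

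RNA of 37 single C57BL/6 mouse oocytes was sequenced with Smart-seq2 in batches A and B, to follow meiotic maturation. Batch A held 6 oocytes at the germinal vesicle (GV) stage and 6 at metaphase II (MII), and batch B held 10 GV oocytes and 15 at metaphase I (MI). The females were 6 to 8 weeks old and received gonadotropin from pregnant mare serum (PMSG). GV oocytes were taken from ovaries 48 h after PMSG, MII oocytes from the ampulla 15 h after human chorionic gonadotropin (hCG), and MI oocytes after 8 h of culture of GV oocytes in M16 medium. MII oocytes thus matured in the animal and MI oocytes in a dish. The zona pellucida and polar bodies had been removed. No source names the animal behind an oocyte, so p-values measure only the spread between these oocytes. MI and MII oocytes were in different batches, and each stage was compared with the GV oocytes of its own batch.

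The total expected count per oocyte was 7509812 to 12648571 in GV and 9930422 to 13988336 in MII oocytes of batch A. It was 7184193 to 17724506 in GV and 2709247 to 19390137 in MI oocytes of batch B. The 50 genes together held 22759 to 48315 counts in a GV oocyte and 24118 to 31271 in an MII oocyte of batch A. In batch B they held 17662 to 49178 counts at GV and 4724 to 55635 at MI. An annotated rRNA gene, CT010467.1, held 7.24% to 21% of the counts of a GV oocyte (median 16.2%) and 14.6% to 30% of those of an MII oocyte (median 21.2%) in batch A. In batch B it held 20.7% to 34% at GV (median 26.1%) and 17.6% to 41.5% at MI (median 26.2%). Some libraries stood apart. MII oocyte 1 had counts in 29816 genes, beside a median of 20599 for its group. The shallowest library was MI oocyte 15, in which 12654 genes had counts. HTSeq counted 1.07 to 1.13 times as much as RSEM in MI oocytes 4, 8 and 9, beside group medians of 2.01 to 2.07.

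Levels between genes were compared per length, on the TPM scale computed from the transcript counts. Most subunits were among the more abundant protein-coding RNAs of the oocyte. The alpha ring subunit Psma7 was the highest member in GV oocytes of batch A, at 554 ± 172 TPM (SD, n = 6), which put it at percentile 99.3 of protein-coding genes. The ubiquitin receptor Psmd4 was highest in the base in all 4 groups, with 317 ± 64.9 TPM at GV and 259 ± 34.6 TPM at MII in batch A (SD, n = 6 each). In the beta ring Psmb2 led in batch A, with 319 ± 102 TPM at GV and 224 ± 88.6 at MII (SD, n = 6 each). Psmb6 led in batch B, with 224 ± 38.9 TPM at GV (SD, n = 10) and 267 ± 124 at MI (SD, n = 15). The SDs of Psmd4 and Psmb2 overlapped in batch A. Those of Psmb6, with 294 ± 50.5 TPM at GV and 146 ± 24.9 at MII there (SD, n = 6 each), also overlapped those of Psmb2. Genes were measured in the same oocytes, and their TPM were not compared oocyte by oocyte. In the lid Psmd8 led at GV in batch A (206 ± 44.8 TPM, SD, n = 6), Psmd12 at MII (136 ± 33.6 TPM, SD, n = 6) and Psmd7 in batch B (118 ± 41.9 TPM at GV, SD, n = 10). Psmf1, an inhibitor of the core particle in vitro, led the regulators at GV in batch A with 204 ± 36.8 TPM (SD, n = 6). Psmd10, a chaperone of base assembly also known as gankyrin, led the chaperones in all 4 groups, with 96.3 ± 22.5 TPM at GV in batch A (SD, n = 6).

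A few members were at or near 0. Levels from here on are TMM-normalised CPM, scaled within each batch, and a range gives the lowest, the median and the highest oocyte. The immunoproteasome subunits Psmb8, Psmb9 and Psmb10 replace the constitutive catalytic subunits in immune cells. In GV oocytes of batch A Psmb8 had 0.155, 0.683 and 1.22 CPM, and Psmb10 had 0.0824, 0.303 and 0.495 CPM. Psmb9 had no count in any GV oocyte. At MII Psmb8 had 0, 0.346 and 0.882 CPM and Psmb10 had 0, 0.132 and 0.213 CPM, and Psmb9 had 0, 0 and 1.86 CPM, the highest value being that of MII oocyte 1. All 3 genes were thus far below the constitutive catalytic subunits in batch A. In batch B Psmb8 had 0, 1.5 and 2.02 CPM at GV and 0, 4 and 10.5 CPM at MI, with overlap between the stages. There Psmb10 reached at most 0.607 CPM at GV and 0.471 CPM at MI, and Psmb9 at most 0 and 0.0962 CPM. The Psmb8 values were not shared by HTSeq, which counted on average 0.6 reads at GV and 0.867 at MI in batch B where RSEM had 18.4 and 56.6. The only Psmb8 transcript that passed the low-count filter was Psmb8-202, a retained-intron transcript of 1907 bases.

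The thymus-specific subunit Psmb11 was also low, with 0.668, 1.25 and 2.55 CPM at GV and 0.531, 1.24 and 3.73 CPM at MII in batch A. In batch B it had 0, 0.499 and 1.61 CPM at GV and 0, 0.289 and 3.19 CPM at MI. The stages overlapped in both batches. Psma8, the alpha ring subunit of testis, had no count in any GV oocyte of either batch and reached at most 0.32 CPM at MII and 0.706 CPM at MI. Low levels were not limited to subunits of other tissues. The lid subunit Psmd13 had a median of 1.52 CPM at GV and 0.511 CPM at MII, while the medians of the other 7 lid subunits at GV in batch A were 21.2 to 153 CPM. The core assembly chaperone Psmg2 had a median of 0.346 CPM at GV, beside 35.5 CPM of Psmg1, the chaperone with which it pairs. Psme1, which forms the interferon-inducible activator ring with Psme2, had a median of 0.0863 CPM at GV, beside 8.25 CPM of Psme2.

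Between GV and MII in batch A, 42 of the 50 genes passed the low-count filter and were tested with all 12929 genes. A call took a more than 2-fold change together with a Benjamini-Hochberg adjusted p below 0.05 in edgeR's quasi-likelihood test. By this rule 9 members were lower at MII, where 6.32% of all genes tested were. They were Psma6, Psma7, Psmb4, Psmb5, Psmb7, Psmc4, Psmd6, Psmg4 and Psme2, so that each class of subunit was represented. No member was called higher by edgeR's quasi-likelihood test, where 2.15% of all genes were; DESeq2 also called 0, and 3 members had an unadjusted p under 0.05 with a positive change. By the adjusted p alone 17 members were lower and 2 higher, Psme4 and Psmd11, and 23 did not pass. The shares over all genes by that rule were 11.5% and 9.06%. The median log2 fold change of the 42 members was -0.34, beside 0.01 for all genes. In 14 members every MII oocyte was below every GV oocyte, which held for 5.71% of all genes, and in 1, Psme4, every MII oocyte was above (4.08%). Not tested were Psma8, Psmb8, Psmb9, Psmb10, Psmd13, Psmg2, Psme1 and Psme2b.

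These values are relative to the other RNAs of the oocyte. ERCC spike-ins, added to batch A alone, put the median log2 fold change of all genes at -0.72 and that of the members at -1.08. With spike-in size factors all 42 members had a negative change, so the sign of the 11 positive ones flipped. This scaling lowers all genes by a similar amount, so the flips are no result about these members in particular. By it 24 members were called lower, where 29.3% of all genes were. Changes below are given relative to the other RNAs, under TMM.

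**Figure D1:**
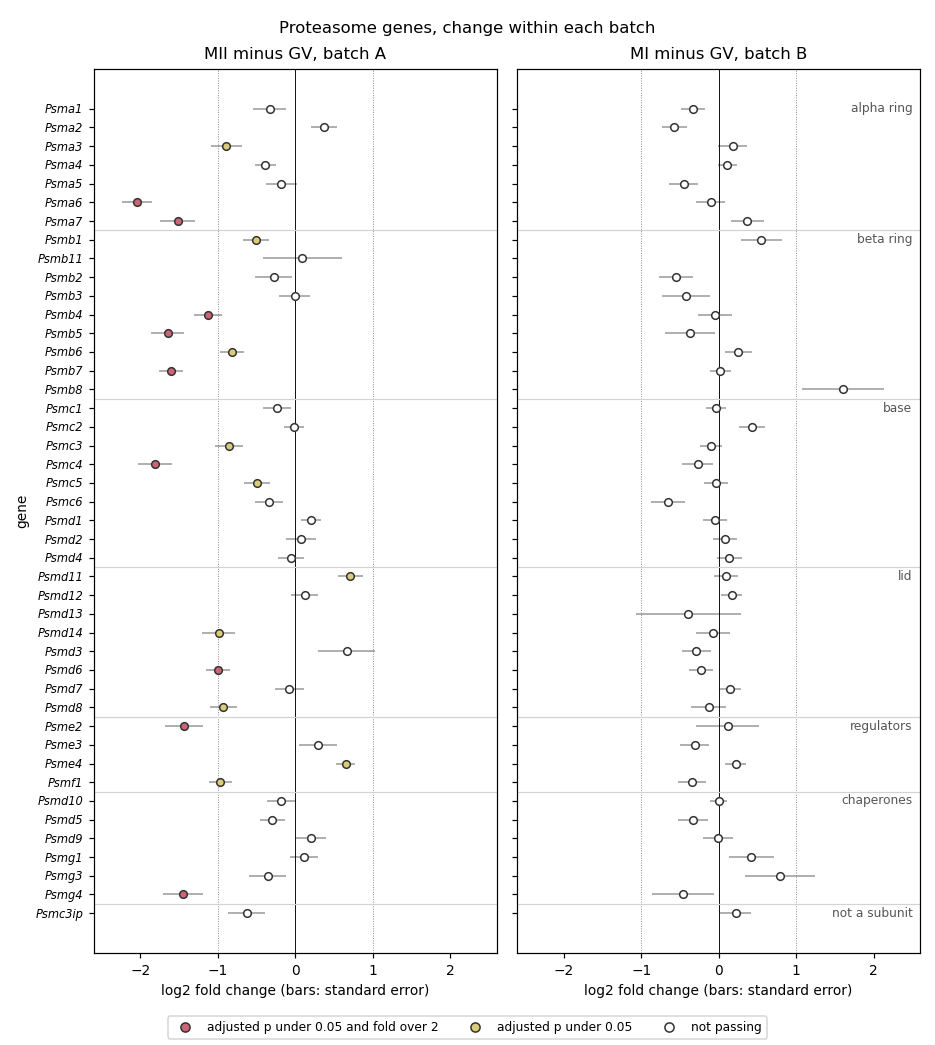
Log2 fold change (horizontal axis) of each proteasome gene tested (vertical axis, by class) for MII minus GV in batch A and MI minus GV in batch B; bars are standard errors, and the fill marks what passed the test. In batch A the 9 called members lie at -1 or below. Psme4 (0.65) and Psmd11 (0.71) lie on the other side, and both turn negative under spike-in scaling. In batch B no member was called by edgeR's quasi-likelihood test, while DESeq2 called Psmb8.

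Of the alpha ring, the gate of the core particle, 2 of 7 subunits tested were called lower at MII. Psma6 (chromosome 12, 55384222 to 55418454 on GRCm38) had 55.8, 64.1 and 89.3 CPM at GV and 12.2, 16.1 and 25 CPM at MII. The stages did not overlap. The log2 fold change was -2.04 (standard error 0.193, edgeR quasi-likelihood, Benjamini-Hochberg adjusted p = 6.94e-06), the lowest of the members that passed the low-count filter. Psma7 (chromosome 2, 180036374 to 180042433) had 148, 247 and 390 CPM at GV and 64.1, 86.6 and 122 CPM at MII. Again all 6 MII oocytes were below all 6 GV oocytes. Its log2 fold change was -1.52 (standard error 0.225, edgeR quasi-likelihood, Benjamini-Hochberg adjusted p = 0.00028). Psma3 fell by 0.89 on the log2 scale and passed by the adjusted p alone, with an overlap of the stages. Psma2 went the other way in value, from 136, 159 and 212 CPM at GV to 163, 221 and 284 CPM at MII, and did not pass (log2 fold change 0.37; negative under spike-in scaling). With the fall of Psma7, Psma2 had the highest mean of the alpha subunits per length at MII, at 167 ± 43.7 TPM. Its SD overlapped that of Psma7, at 165 ± 48.1 TPM (SD, n = 6 each). Psma1, Psma4 and Psma5 did not pass, with log2 fold changes of -0.33, -0.39 and -0.18.

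In the beta ring 3 of the 7 constitutive subunits were called lower and 2 more passed by the adjusted p alone. The catalytic subunits are Psmb5 (chymotrypsin-like activity), Psmb6 (caspase-like) and Psmb7 (trypsin-like), and all 3 fell. Psmb5 (chromosome 14, 54614119 to 54618022) had 27.7, 33.3 and 50.6 CPM at GV and 6.24, 11.9 and 14.2 CPM at MII. Psmb7 (chromosome 2, 38588036 to 38644087) had 84.6, 104 and 127 CPM at GV and 24.0, 34.6 and 41.8 CPM at MII. Psmb6 had 88.2, 123 and 145 CPM at GV and 55.9, 63.3 and 78.1 CPM at MII. None of these 3 genes showed an overlap between the stages. The log2 fold change of Psmb5 was -1.65 (standard error 0.212, edgeR quasi-likelihood, Benjamini-Hochberg adjusted p = 7.78e-05). That of Psmb7 was -1.60 (standard error 0.155, edgeR quasi-likelihood, Benjamini-Hochberg adjusted p = 9.23e-06). Psmb6 fell by 0.82 (standard error 0.152, edgeR quasi-likelihood, Benjamini-Hochberg adjusted p = 0.00159), which is under a fold of 2. The structural subunit Psmb4 fell by 1.13, without overlap, and Psmb1 by 0.51, with overlap. Psmb1 lost its adjusted p under 0.05 in 7 of the 12 fits with an oocyte left out. Psmb2 and Psmb3 did not pass (-0.28 and -0.01). Psmb2, the leading beta subunit per length, had 95, 126 and 192 CPM at GV and 67.2, 110 and 165 CPM at MII, with wide overlap.

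In the base, 1 of 9 subunits was called. Psmc4, an ATPase of the unfolding ring (chromosome 7, 28041707 to 28050101), had 57.8, 91.1 and 131 CPM at GV and 17.1, 27.0 and 33.8 CPM at MII. No MII oocyte reached the lowest GV oocyte. The log2 fold change was -1.81 (standard error 0.216, edgeR quasi-likelihood, Benjamini-Hochberg adjusted p = 3.76e-05). The other 5 ATPases work in the same ring, and their log2 fold changes ran from -0.86 (Psmc3) to -0.02 (Psmc2). Psmc3 and Psmc5 (-0.50) passed by the adjusted p alone, the latter lost in 8 of the 12 fits with an oocyte left out. The scaffold subunits Psmd1 and Psmd2 and the ubiquitin receptor Psmd4 did not pass, with 0.20, 0.07 and -0.06. Psmd4 had 130, 215 and 266 CPM at GV and 161, 203 and 219 CPM at MII, so that the MII oocytes lay within the range of the GV oocytes.

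In the lid, Psmd6 was called lower and passed the fold threshold only narrowly. It had 61.6, 75.2 and 91.5 CPM at GV and 29.7, 35.6 and 47.1 CPM at MII, without overlap, and a log2 fold change of -1. Psmd14, the deubiquitinase of the lid, fell by 0.99 and Psmd8 by 0.93, both under the fold threshold and both without overlap. Psmd8, the leading lid subunit per length at GV, had 102, 153 and 197 CPM at GV and 59.4, 79.1 and 92.2 CPM at MII. Psmd11, which helps to hold the lid and the base together, was higher at MII by the adjusted p alone. It had 18.8, 23.1 and 30.2 CPM at GV and 27.2, 40.3 and 45.5 CPM at MII, so that the stages overlapped. Its log2 fold change was 0.71 (standard error 0.163, edgeR quasi-likelihood, Benjamini-Hochberg adjusted p = 0.00647), and -0.05 under spike-in scaling. Psmd3, Psmd7 and Psmd12 did not pass (0.66, -0.08 and 0.12). Psmd12, the leading lid subunit at MII, had 98.4, 129 and 167 CPM at GV and 99.3, 147 and 177 CPM at MII.

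The regulators went in both directions. Psme4, a large activator that docks on the core particle in place of the base (chromosome 11, 30771726 to 30880361), had 123, 164 and 181 CPM at GV and 232, 240 and 285 CPM at MII. All 6 MII oocytes were above all 6 GV oocytes. The log2 fold change was 0.65 (standard error 0.124, edgeR quasi-likelihood, Benjamini-Hochberg adjusted p = 0.00186), under a fold of 2, and -0.11 under spike-in scaling. Psmf1 (chromosome 2, 151715812 to 151744186) had 135, 191 and 207 CPM at GV and 73.4, 98.9 and 108 CPM at MII. The stages did not overlap, and the log2 fold change was -0.97 (standard error 0.146, edgeR quasi-likelihood, Benjamini-Hochberg adjusted p = 0.000312). Psme2 was called lower (-1.44), with 5.69, 8.25 and 11.5 CPM at GV and 2.13, 3.07 and 3.74 CPM at MII. Psme3, which forms an activator ring of its own in the nucleus, did not pass (0.29). Of the 6 chaperones tested, Psmg4 was called lower (-1.45), with 11.5, 15.9 and 19.9 CPM at GV and 3.55, 5.46 and 9.18 CPM at MII. The other 5 had log2 fold changes from -0.36 to 0.20 and did not pass. Psmd10 was among them, with 43.6, 72.2 and 87.7 CPM at GV and 46.8, 62.1 and 74.6 CPM at MII. Psmc3ip did not pass (-0.63).

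**Figure D2:**
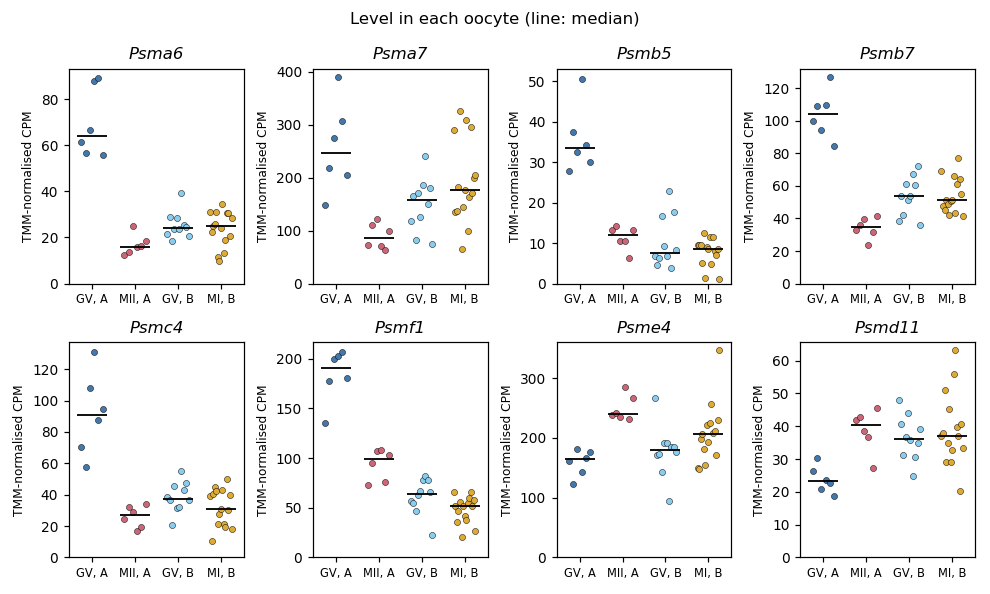
TMM-normalised CPM (vertical axis, scaled within a batch) of 8 genes in each oocyte by stage and batch; points are oocytes and lines are medians. In batch A the MII oocytes lie below the GV oocytes for Psma6, Psma7, Psmb5, Psmb7, Psmc4 and Psmf1 and above them for Psme4, a direction that turns under spike-in scaling; GV and MI oocytes of batch B overlap in all 8 genes, as they do in all 12419 genes tested.

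The summed level of a class was also taken per oocyte, without a test. The alpha ring summed to 827 ± 190 CPM at GV and 579 ± 127 at MII (SD, n = 6 each), a ratio of 0.7 ± 0.223. The beta ring summed to 603 ± 111 and 369 ± 82.8 CPM, a ratio of 0.612 ± 0.178. Among the MII oocytes the alpha ring summed to less where the rRNA gene held more of the counts. In MII oocytes 1, 4 and 5, in which it held 23.8% to 30% of the counts, the alpha ring summed to 449 to 498 CPM. In MII oocytes 2, 3 and 6, with 14.6% to 18.6%, it summed to 651 to 722 CPM, in the range of GV oocytes 1, 3 and 6, with 623 to 774 CPM at 19.1% to 21%. The beta ring split the same way, with 275 to 317 CPM in MII oocytes 1, 4 and 5 and 410 to 471 CPM in MII oocytes 2, 3 and 6. So did the lid and the chaperones, and narrowly the base, while the regulators did not. The part of this share in the sums was not tested. In the beta ring every MII oocyte, at 275 to 471 CPM, was below every GV oocyte, at 486 to 751 CPM. The base (832 ± 137 and 688 ± 43.1 CPM), the lid (487 ± 69.2 and 410 ± 37.3), the chaperones (300 ± 53.8 and 276 ± 51.4) and the regulators (427 ± 54.0 and 440 ± 41.8) overlapped between the stages. In batch B the ratio of MI to GV was 1.01 ± 0.317 for the alpha ring, 1.15 ± 0.564 for the beta ring, 1.01 ± 0.24 for the base and 1.03 ± 0.178 for the lid. It was 1.04 ± 0.229 for the regulators and 0.989 ± 0.203 for the chaperones. The ± of each ratio, in both batches, was carried over from the SDs between oocytes. It is thus a spread of single oocytes and not the error of a ratio of means, which is smaller. The ratios of batch B differed from 1 by less than this spread, which does not show that the means were equal. A sum follows its most abundant genes, and the classes were not compared with each other by a test. With spike-in scaling all 6 ratios of batch A were lower, from 0.37 for the beta ring to 0.616 for the regulators.

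**Figure D3:**
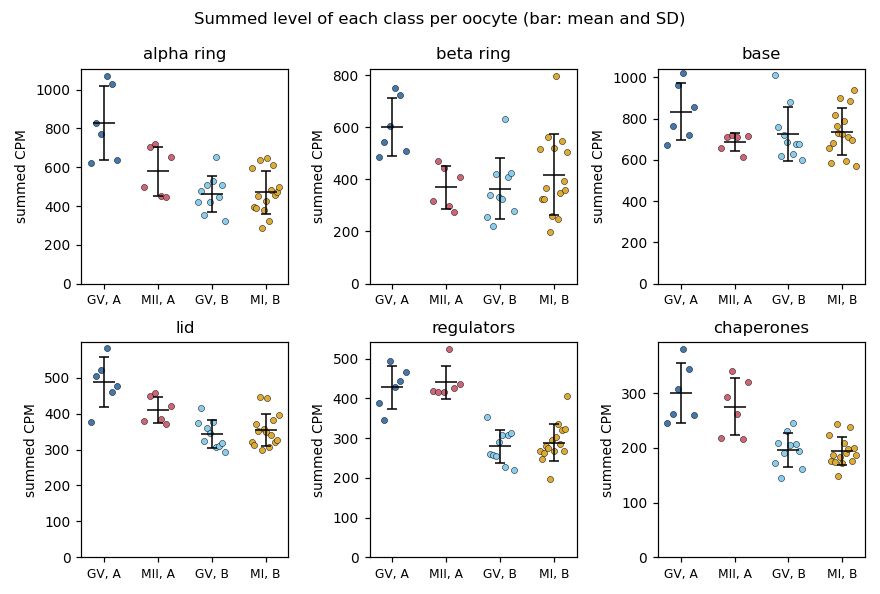
Summed TMM-normalised CPM of each class of proteasome gene (vertical axis) per oocyte, by stage and batch; bars are the mean and SD of 6, 6, 10 and 15 oocytes. Only the beta ring separated the MII oocytes (275 to 471 CPM) from the GV oocytes (486 to 751 CPM) of batch A.

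Between GV and MI in batch B, 43 of the 50 genes were tested among 12419. None was called in either direction by edgeR's quasi-likelihood test, where 0.0322% of all genes were lower and 0.0886% higher, nor by the adjusted p alone, where 0.0483% and 0.0966% were. At an unadjusted p under 0.05 there were 8 members, 5 lower and 3 higher, and DESeq2 called 1, Psmb8, the gene that HTSeq hardly counted. The share of all genes at an unadjusted p under 0.05 was 11%. The median log2 fold change was -0.03 for the members and 0.02 for all genes. None of the genes tested had every MI oocyte beyond every GV oocyte. The smallest p belonged to Psma2, with 48.7, 66.7 and 99.5 CPM at GV and 29.9, 48 and 74.4 CPM at MI, which overlapped, and a log2 fold change of -0.57 (standard error 0.159, edgeR quasi-likelihood, Benjamini-Hochberg adjusted p = 0.133). DESeq2 and the model of all 37 oocytes gave it an adjusted p under 0.05 (0.0458 by DESeq2, 0.0403 by edgeR's quasi-likelihood test in that model, each with Benjamini-Hochberg adjustment; 0.0403 to 0.494 over all settings).

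The levels at GV and MI of genes described above for batch A are given here, with the reserve that 0% of all genes tested separated these stages. Psma6 had 18.4, 24.1 and 39.3 CPM at GV and 9.62, 24.8 and 34.6 CPM at MI. Psma7 had 74.8, 158 and 241 CPM at GV and 64.6, 177 and 327 CPM at MI. The stages overlapped in both genes. Of the catalytic subunits, Psmb5 had 3.74, 7.58 and 22.9 CPM at GV and 1.10, 8.54 and 12.6 CPM at MI. Psmb6 had 58.1, 96.0 and 118 CPM at GV and 54.6, 105 and 232 CPM at MI. Psmb7 had 36.0, 53.9 and 72.2 CPM at GV and 41.7, 51.2 and 77.4 CPM at MI. Their log2 fold changes were -0.37, 0.25 and 0.02, with standard errors of 0.319, 0.174 and 0.134, and none passed. Psmc4 had 20.5, 37.5 and 55.0 CPM at GV and 10.6, 31.2 and 49.7 CPM at MI. Psme4 had 94.2, 181 and 266 CPM at GV and 148, 206 and 347 CPM at MI. Psmd4 had the highest mean per length at GV in batch B, at 362 ± 178 TPM (SD, n = 10). Psma7 was at 308 ± 102 TPM (SD, n = 10), and the SDs of these 2 genes overlapped. The levels of Psmd4 were 137, 206 and 482 CPM at GV, the highest in GV oocyte 1, and 162, 254 and 382 CPM at MI. All of these overlapped as well.

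Whether the change at MII differed from the change at MI was tested in a model of all 37 oocytes with a mean for each group. Stage, batch and maturation in the animal or in culture cannot be told apart in this difference. Of 44 members tested among 15083 genes, 4 had a smaller value at MII, beside 2.02% of all genes, and 1 a larger value, beside 2.01%. By the adjusted p alone 6 were smaller, Psma3 and Psmb6 in addition, and 1 larger, beside 2.36% and 3.1%. The 4 were Psma6, with a difference of -1.86 on the log2 scale, Psma7 with -1.81, Psmb7 with -1.54 and Psmc4 with -1.47. For Psma6 the standard error was 0.305 (edgeR quasi-likelihood, Benjamini-Hochberg adjusted p = 0.000133). The other 5 members called in batch A did not pass here, which does not show that their changes at MII and MI were equal. They were Psmb4 (-1.01), Psmb5 (-1.20), Psmd6 (-0.70), Psme2 (-1.49) and Psmg4 (-0.90). All of them but Psmg4 had an unadjusted p under 0.05 in edgeR's quasi-likelihood test. At that level there were 22 of the 44 members, 17 smaller and 5 larger, beside 17.7% of all genes. The larger value was that of Psma2, at 1.02 (standard error 0.257, edgeR quasi-likelihood, Benjamini-Hochberg adjusted p = 0.0121), and on HTSeq counts it kept its adjusted p under 0.05 and missed the fold threshold.

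The transcript table listed 271 transcripts of the 50 genes. In batch A 72 were tested, and 14 were called lower and 2 higher at MII, beside 4.23% and 1.35% of the 22461 transcripts tested. The lower ones with the smallest adjusted p were the main coding transcripts of genes described above. Psmb7-201 had 86.9, 105 and 131 CPM at GV and 24.2, 34.8 and 41.5 CPM at MII (log2 fold change -1.62). Psma6-201 had 54.1, 62.8 and 92.3 CPM at GV and 12.6, 15.7 and 23.6 CPM at MII (-2.06). Psmc4-201 had 57.9, 90.7 and 130 CPM at GV and 15.4, 26.7 and 33.2 CPM at MII (-1.82). No overlap was seen in these 3. Of those with an adjusted p under 0.05 and a positive change, Psme4-201 had 124, 166 and 183 CPM at GV and 230, 241 and 286 CPM at MII (0.64). Psmb6-202, a retained-intron transcript, had 5.82, 8.74 and 9.62 CPM at GV and 14.8, 15.0 and 19.1 CPM at MII (0.95). Psma3-206, which the annotation marks for nonsense-mediated decay, had 0.84, 1.69 and 2.25 CPM at GV and 3.48, 4.85 and 8.12 CPM at MII (1.69). These 3 did not overlap either, and Psma3-206 was called while the others were under a fold of 2. Psma3-206 lost its call without the low-count filter (1.65) and with the replicate number as a block (1.70). Under spike-in scaling Psme4-201 turned to -0.11, Psmb6-202 was at 0.22 and Psma3-206 at 1.01, and none of them passed.

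Transcripts of a gene did not always move alike. The following were chosen after their values were seen. The coding transcript Psmb6-201 fell by 1.14 on the log2 scale, from 78.6, 116 and 134 CPM to 40.0, 48.1 and 59.7 CPM, while the retained-intron Psmb6-202 rose. For Psma3 the retained-intron Psma3-203 fell by 1.95, from 12.3, 14.4 and 25.2 CPM to 2.24, 4.15 and 7.59 CPM, while Psma3-206 rose. The other transcript called higher, a form of Psmd11 of 1626 bases, had 2.11, 6.16 and 9.61 CPM at GV and 7.87, 15.6 and 19.3 CPM at MII (1.3), while Psmd11-201 did not pass (0.28). Both encode a coding sequence of 1266 bases, and the annotated 3′ untranslated region (UTR) has 315 bases in the shorter form and 1539 in Psmd11-201. Psmf1 also has a short and a long form with the same length of coding sequence, 813 bases. The short form Psmf1-202, with a 3′-UTR of 369 bases, fell from 82.1, 124 and 146 CPM to 24.6, 41.7 and 59.5 CPM (-1.57). The long form Psmf1-201, with 2822 bases, had 44.9, 67.1 and 79.8 CPM at GV and 44.0, 50.5 and 66.3 CPM at MII and did not pass (-0.34). Under TMM the shorter form thus fell for Psmf1 and rose for Psmd11. The difference between the forms was not tested. The call of the Psmd11 form was lost with spike-in scaling (log2 fold change 0.59), without the low-count filter (1.26), with the replicate number as a block (1.38) and without MII oocyte 1 (1.26). Over the same settings Psmb6-201 ran from -1.82 to -1.11, Psma3-203 from -2.64 to -1.81 and Psmf1-202 from -2.29 to -1.48, all with an adjusted p under 0.05. Psmf1-201 ran from -1.02 to -0.29 and passed with spike-in scaling alone. In batch B 79 transcripts were tested and 0 called by edgeR's quasi-likelihood test, with 10 at an unadjusted p under 0.05, beside 7.11% of all transcripts, and 0% of the 22717 transcripts tested were called in either direction.

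Stored oocyte RNAs are known to be held and released for translation through short elements near the poly(A) tail. The last 100 bases of the coding transcript of each member with the highest mean count over all 37 oocytes were therefore searched on the sense strand for the cytoplasmic polyadenylation motifs TTTTAT and TTTTAAT. Either was present in 5 of the 42 members tested in batch A (11.9%), in none of the 8 others, and in 2130 of 11149 protein-coding genes tested (19.1%). For Psme1 no 3′-UTR was annotated in the transcript used and no bases were searched. None of the 9 members called lower held one, and 5 of the 33 tested and not called did (15.2%). The 5 windows of 30 bases around the motif, all within the 3′-UTR, are shown because these members are the exceptions, with the motif in capitals, 5′ to 3′ along the RNA, from the GENCODE M21 transcripts on GRCm38.
Psma1, chr7:114264659-114264688, minus strand: ctataccaatgtTTTTATatgaagaaaata
Psma5, chr3:108279910-108279939, plus strand: gtgtgtgtgtttTTTTATgaagtctgtaca
Psmb3, chr11:97713466-97713495, plus strand: tttgtttttctTTTTAATaaaattgccttt
Psmg1, chr16:95979966-95979995, minus strand: tgatgttttgtaTTTTATtctggcttggga
Psmg3, chr5:139823620-139823649, minus strand: gtgggaagatttTTTTATtaaaaataaatc
None of these 5 genes passed the test in either batch under TMM. With spike-in scaling all 5 were lower at MII by the adjusted p of edgeR's quasi-likelihood test (Benjamini-Hochberg), and Psma1 (-1.07) and Psmg3 (-1.11) were called. Under that scaling the members called lower thus included genes with a motif, while Psma5, Psmb3 and Psmg1 were not called. The contrast between members called and not called was not tested. A polyadenylation signal, AATAAA or ATTAAA, was in the window of 37 of the 42 members tested (88.1%) and of 78.9% of the protein-coding genes. The motif TGTANATA was in 2 of them (4.76%) and in 4.97% of the genes. A match is a description of letters and shows no use of the site. The median length of the 3′-UTR was 267.5 bases over the 42 members tested and 928 over the protein-coding genes tested, though that of Psmb11, Psmd5, Psma2, Psma3, Psmd9, Psme3, Psmd11 and Psmc6 was longer than 928. Within the members it was 107 for the 9 called lower (44 to 335) and 329 for the 33 not called (58 to 3321). In UTRs shorter than 100 bases fewer letters were searched. In batch A alone the most abundant coding transcript of Psmb1, a member not called, was Psmb1-201, with a 3′-UTR of 999 bases in place of 303, and its end was not searched. These lengths were set side by side after the calls were known, and no test was made.

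The members lie on 16 chromosomes, with at most 10 on chromosome 11. Reads can be shared with near-identical or overlapping genes, and 16 of the 50 members matched another gene over at least 150 bases at 95% identity or more. Psma3 matched the processed pseudogene Gm13835 over 665 bases at 100%, and that pseudogene itself had a mean of 121 counts in GV and 52.8 in MII oocytes of batch A, so that the division of reads between them is uncertain. Psmd11 matched A730017L22Rik over 1501 bases, a gene with 35.6 counts at GV and 66.3 at MII. Psmb7 shared 255 bases with Nek6, and its HTSeq counts were 0.493 times those of RSEM at GV relative to other genes, though it was lower at MII by either count. Psme2 and Psme2b were 99.4% identical over 794 bases, and nearly all counts went to Psme2. Psmb5 had a pseudogene copy, Gm3375, which held less than 1 count on average in each group.

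Other genes of the pathway were also examined. The ubiquitin genes Ubb and Rps27a were called lower at MII in batch A, with medians that went from 2910 to 1330 and from 51 to 9.12 CPM and log2 fold changes of -1.20 and -2.59. The activating enzymes Uba1 and Uba6 did not pass (-0.17 and 0.01). Of the 9 subunits of the COP9 signalosome, a complex built like the lid, Cops3 was called lower (-1.62), from a median of 94.8 to 33.0 CPM. Cops6 (-0.87) and Cops7a (-0.50) were lower and Cops8 (0.39) higher by the adjusted p alone. Among 9 further proteasome cofactors only the ubiquitin ligase Ube3c passed, by the adjusted p alone (0.63). Among 10 shuttle and unfoldase genes only the shuttle Ubqln1 passed, also by the adjusted p alone (0.68), while Ubqln2 and Zfand5 had an unadjusted p under 0.05. Among 7 genes for the transcription of proteasome genes none passed, and Ddi2 (0.51) had an unadjusted p under 0.05. None of the genes of this paragraph was called between GV and MI by edgeR's quasi-likelihood test, where Sem1, Faf1 and Ubb had an unadjusted p under 0.05. These genes were not examined with DESeq2. The positive values here are relative to the other RNAs, and the shift of all genes under spike-in scaling is larger in size than each of them.

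Markers were examined for the identity of the samples. All 13 oocyte markers had a mean of at least 1 CPM in each group, and Gdf9 was the most abundant, at 3080 CPM before TMM scaling at GV in batch A. On that scale they summed to 16400 ± 4540 CPM at GV and 8480 ± 1220 at MII in batch A (SD, n = 6 each), and the highest MII oocyte (10900) was below the lowest GV oocyte (12100). In batch B the sums were 5290 ± 1300 CPM at GV (SD, n = 10) and 4480 ± 1140 at MI (SD, n = 15), with overlap. At MII 4 of the 13 were called lower, Zp1, Zp2, Zp3 and Figla, and 7 were lower by the adjusted p alone. Of the 16 cumulus and granulosa markers, Amh, Amhr2, Tnfaip6, Ptx3 and Slc38a3 had a median of 0 in each group. Their summed level was 43.5 ± 11.4 CPM at GV and 33.0 ± 5.43 at MII in batch A (SD, n = 6 each), and 38.5 ± 9.72 at GV (SD, n = 10) and 36.2 ± 12.9 at MI (SD, n = 15) in batch B. Cyp19a1 was the most abundant of the list in 3 groups and Nr5a2 at MI. In batch B 2 of the 5 markers tested, Gja1 and Ccnd2, were lower at MI (-3.42 and -3.69). The other 3, Cyp19a1 (-0.22), Nr5a2 (0.75) and Has2 (1.21), did not pass, and Nr5a2 had an unadjusted p under 0.05. In batch A the 2 tested, Cyp19a1 (0.12) and Nr5a2 (0.1), did not pass. Gja1 and Ccnd2 were not tested in batch A, where Ccnd2 went from a median of 2.34 to 0 CPM between GV and MII. There Inha went from a median of 0.993 to 0 CPM and Fshr from 0.236 to 0 CPM, and the markers with a mean of at least 1 CPM went from 6 to 2. The 10 blood and immune markers summed to 7.02 ± 3.27 CPM at GV and 8.88 ± 4.48 at MII in batch A (SD, n = 6 each), with Laptm5 the most abundant, and to 3.34 ± 1.82 at GV (SD, n = 10) and 2.96 ± 1.93 at MI (SD, n = 15) in batch B, with Hbb-bs the most abundant. The highest sum of batch A was that of MII oocyte 1, at 17.1 CPM, beside 4.33 to 9.67 CPM in the other MII oocytes. The part of such RNA in the proteasome values was not tested.

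The calls of batch A were examined with each oocyte left out in turn. Psma6, Psma7, Psmb4, Psmb5, Psmb7, Psmc4, Psmg4 and Psme2 were called in all 12 fits and Psmd6 in 7. In the model of all 37 oocytes Psmg4, Psme2 and Psmd6 were not called. With the share of the rRNA gene as a covariate, a setting chosen after seeing the data, 7 members were called lower and 0 higher. Psmb4 (-0.92) and Psmd6 (-0.82) then missed the fold threshold. Without MII oocyte 1, the library with many genes detected, 8 members were called lower and 0 higher by edgeR's quasi-likelihood test. Psmb9 was called higher when no low-count filter was used, and the highest of its MII values came from that library.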

How the data were processed

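The authors trimmed reads with Trim Galore 0.6.4, and deposited expected counts of genes and of transcripts from RSEM 1.3.1 and gene counts from HTSeq 0.12.4 after STAR 2.7.6a, on mm10 with GENCODE annotation and ERCC sequences, per the methods and the submitters' processing notes. Neither table was normalised, and the use of strand was not given in the sources used here. Gene names and positions came from GENCODE M21 on GRCm38, which held 54723 of the 54752 gene identifiers. The 92 spike-ins were set aside, expected counts were taken as whole numbers, and genes and transcripts were tested across the whole table with edgeR 4.0.16 (R 4.3.3), TMM and filterByExpr. The filter was used because fits without it gave more false calls when tested on simulated data. A call took a more than 2-fold change and a Benjamini-Hochberg adjusted p below 0.05. TPM were computed from transcript counts and annotated lengths. Copies were searched with BLAST 2.17.0, and Python 3.11.15, numpy 2.4.6, pandas 2.3.3 and matplotlib 3.10.9 were used for summaries and plots.

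Alternatives were DESeq2 1.42.0, relative log expression and spike-in size factors, plain CPM, no filter, HTSeq counts, no fold threshold, a model of all 37 oocytes, the replicate number as a block, the share of an rRNA gene as a covariate, each oocyte of batch A left out in turn, and batch B without MI oocyte 15 or without MI oocytes 4, 8 and 9. Depth was 2709247 to 19390137 counts per oocyte, without molecular identifiers. Members with full values were the catalytic and tissue-specific subunits, the most abundant of each class per length, and up to 6 higher and 6 lower per comparison with the smallest adjusted p under 0.05, with up to 3 transcripts per direction; Psmb4, Psmd6, Psmg4 and Psme2 were named after their values were seen, as the other members called. Members and lists were chosen with earlier results of these data known. Of the cofactors listed, Paaf1 was not analysed here. Some genes of the pathway are not reported here. The reads were not used here.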

Additional observations from a re-analysis of the deposited data

Results flagged for a closer look

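A value was picked out when its gap to the nearest oocyte of its group exceeded Dixon's 95% limit, which chance passes in about 1 of 20 groups. Of 104 groups of 6 or 10 oocytes examined, over 30 genes and 6 class sums, 7 did so. GV oocyte 7 of batch B had 39.3 CPM of Psma6, beside 18.4 to 29.0 in the other GV oocytes of the batch, and 246 CPM of Psmb1, beside 65.8 to 134. Its summed beta ring was 631 CPM, beside 223 to 425. GV oocyte 1 of batch B had 482 CPM of Psmd4, beside 137 to 261, and 1.61 CPM of Psmb11, beside 0 to 0.813. MII oocyte 1 had 1.86 CPM of Psmb9, beside 0 to 0.427 in the other MII oocytes. The same library had the highest summed level of blood and immune markers among the MII oocytes, 17.1 CPM before TMM scaling, beside 4.33 to 9.67. MII oocyte 4 had a summed level of the regulators of 524 CPM, beside 417 to 435.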

How the results depend on the processing

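The 9 members called lower at MII were 8 by relative log expression factors and by DESeq2, both without Psmd6, 10 on HTSeq counts, with Psmd6 lost and Psmd13 (-1.65) and Psma3 added, and 6 in the model of all 37 oocytes, which lost Psmd6, Psmg4 and Psme2. With the share of an rRNA gene as a covariate, chosen after seeing the data, they were 7, and 0 in batch B. They became 17 with no fold threshold, with 2 higher, and 24 with spike-in size factors; with no low-count filter 11 were lower, with Psmg2 (-3.33) and Psmd14 added, and 1, Psmb9, was higher. Leaving out each oocyte of batch A gave 8 to 12 lower and 0 higher. With spike-in scaling Psmd11 (-0.05), Psme4 (-0.11) and Psme4-201 (-0.11) turned, and the ratio of MII to GV was 0.425 for the alpha ring, 0.37 for the beta ring, 0.508 for the base, 0.516 for the lid, 0.616 for the regulators and 0.554 for the chaperones. In batch B DESeq2 called 1 member higher. The difference between the changes gave 8 smaller and 0 larger with no filter, 6 smaller and 0 larger on HTSeq counts, and 4 smaller and 0 larger on HTSeq counts without MI oocytes 4, 8 and 9, which was chosen after seeing the data. Transcripts lower at MII became 34 with spike-in factors, and the 2 higher became 0 with these, with no filter and with the block, and 1 without MII oocyte 1. The cause of these shifts was not tested. Of the log2 fold changes of named genes and transcripts under the alternatives, 478 kept their direction and their side of the threshold, 38 kept the direction and lost the adjusted p under 0.05, and 4 gained it.

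With the replicate number as a block 10 members were lower in batch A, including the 9, and 0 were called in batch B; 10 transcripts were lower and 0 higher. Deviations of oocytes with the same number correlated from -0.39 to 0.36 over 6 pairs in batch A, with 1 oocyte best matched to its own number, and from -0.2 to 0.14 over 10 pairs in batch B, with 0, so that the numbers do not pair oocytes. At the depth of these libraries, members with a few counts such as Psmb9 and Psmg2 were not tested after filtering.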
